A study of Mus musculus with 9 samples.

Results

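The genes described here are the integrins and other cell-surface receptors for extracellular matrix, with 4 proteins that bind the cytoplasmic tails of integrins, in mouse D3 embryonic stem (ES) cells. They were chosen by name: 17 integrin alpha subunits, 8 beta subunits, Cd44, Dag1, Ddr1, Ddr2, the 4 syndecans, Ilk, Fermt1, Fermt2 and Ptk2. Of these 37 genes, 36 had at least 10 counts summed over the libraries, of 16647 such genes among the 24421 in the count table. Itgb6 lay just inside that limit with 14 counts, and Itgax lay outside it with 3. A filter on low counts left 33 of the 37 among the 14513 genes tested. Itga2, Itgb2, Itgb6 and Itgax were too low and are given as counts.

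Integrins are heterodimers of 1 alpha and 1 beta subunit that span the plasma membrane. The alpha subunit largely sets which matrix protein is bound, and the beta subunit's tail recruits talin, kindlins and integrin-linked kinase, which connect the receptor to actin. Syndecans are heparan sulfate proteoglycans that bind matrix alongside integrins, dystroglycan binds laminin, discoidin domain receptors are tyrosine kinases that bind collagen, and CD44 binds hyaluronan. In mouse ES cells, integrins that contain the beta-1 subunit are the main receptors for the laminin and fibronectin on which the cells attach.

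Messenger RNA was sequenced from 9 libraries, 3 in each of 3 groups, all from D3 cells grown on gelatin without feeder cells, with serum and leukemia inhibitory factor. VT cells stably carried the empty pCDH vector, LAMP2A cells overexpressed LAMP2A, the lysosomal receptor of chaperone-mediated autophagy, and LAMP2A+DM-αKG cells were LAMP2A cells given 4 mM DM-αKG, a cell-permeable ester of α-ketoglutarate, for 72 h. No group held vector cells given DM-αKG. The labels do not say whether a group was a clone or a pool, nor whether its libraries came from separate cultures, so p-values measure the spread between these libraries, which may be technical. Libraries held 23636074 to 32809875 counts. Lamp2 stood at 58.1 CPM (counts scaled to a common library total with TMM factors) in VT libraries, 404 with overexpression and 97.2 in LAMP2A+DM-αKG, the group called "with DM-αKG" below. The counts do not separate the splice forms of Lamp2 or the transgene. Lamp2 was thus lower with DM-αKG as well, and a response to DM-αKG and one to the lower Lamp2 level cannot be told apart. The 12 ES cell markers checked, Pou5f1, Nanog and Sox2 among them, summed to 8855 to 9244 CPM in VT libraries, 2082 to 2089 in LAMP2A and 7598 to 7638 with DM-αKG, and each had counts in every group. Summed levels of 12 endoderm markers were 320.5 to 332, 1720.1 to 1738 and 397 to 415 CPM in the same order, with Afp at 0 in VT. Sparc alone gave 286, 1251 and 346 CPM of these sums, and Sox7 went the other way, at 14.1, 10.3 and 21.0 CPM. Those of 12 fibroblast and feeder cell markers were 12.1 to 13.3, 150.6 to 153 and 14.2 to 17.5 CPM, with Lum and Fap at 0 in VT and Fap at 0 in LAMP2A. Most of the LAMP2A sum came from Col1a1, Col3a1 and Col1a2, at 59.1, 34.8 and 6.86 CPM there and 0.968, 0.0865 and 0.0756 in VT. These collagen genes are counted again among the genes for matrix proteins below. Summed levels of 8 endothelial markers were 106 to 112, 56.7 to 60.1 and 92.4 to 95.5 CPM, with Emcn at 0 in VT and LAMP2A+DM-αKG. Pecam1 made up most of that sum (74.3, 19.9 and 66.4 CPM), and Tie1 fell in LAMP2A too, while Kdr (1.19 to 5.90 CPM), Cdh5 (0.347 to 1.09) and Egfl7 (16.4 to 22.1) rose there. The part of such cells in the receptor changes below was not tested, and in bulk RNA a change in the share of cells of one type and a change in RNA per cell cannot be told apart.

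Promoters of 4 receptor genes are shown as examples of the responses described below, chosen after their values were seen: the beta subunit genes with opposite responses, Itgb1 and Itgb7, the RGD-binding alpha subunit gene Itga8 and the syndecan gene Sdc3. Each line holds the 250 bases before the RefSeq start on build GRCm38.p6, 5′ to 3′ on the gene's strand, and capitals mark matches to the GC box GGGCGG, bound by SP1, or to GGAATG, bound by TEAD factors, on either strand. The Itgb1 window is chr8:128685404-128685653 (plus strand), that of Itgb7 chr15:102231936-102232185 (minus), that of Itga8 chr2:12301945-12302194 (minus) and that of Sdc3 chr4:130792287-130792536 (plus).
Itgb1: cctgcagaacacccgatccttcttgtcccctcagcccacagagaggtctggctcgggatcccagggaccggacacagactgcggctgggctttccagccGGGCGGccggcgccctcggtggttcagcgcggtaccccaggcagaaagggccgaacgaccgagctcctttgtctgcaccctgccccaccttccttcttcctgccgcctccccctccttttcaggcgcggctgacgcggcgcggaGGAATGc
Itgb7: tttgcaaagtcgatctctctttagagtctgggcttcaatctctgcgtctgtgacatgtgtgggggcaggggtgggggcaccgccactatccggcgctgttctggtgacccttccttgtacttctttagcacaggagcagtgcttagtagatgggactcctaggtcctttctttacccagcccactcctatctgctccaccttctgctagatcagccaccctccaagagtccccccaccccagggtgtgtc
Itga8: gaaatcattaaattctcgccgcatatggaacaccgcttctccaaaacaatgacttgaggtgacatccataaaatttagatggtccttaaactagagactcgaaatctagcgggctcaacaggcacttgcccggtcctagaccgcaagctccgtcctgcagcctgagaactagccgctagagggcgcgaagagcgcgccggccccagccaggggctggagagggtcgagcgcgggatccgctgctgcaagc
Sdc3: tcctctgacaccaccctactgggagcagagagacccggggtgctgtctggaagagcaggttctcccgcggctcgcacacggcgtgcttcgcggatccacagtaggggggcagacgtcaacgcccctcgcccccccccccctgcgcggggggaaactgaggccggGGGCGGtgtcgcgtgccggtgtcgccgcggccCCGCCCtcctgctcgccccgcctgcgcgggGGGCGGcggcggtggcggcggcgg

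Itgb1 held 1 GC box, at 151 to 146 bases before the start, and 1 GGAATG at 7 to 2 bases before it. Sdc3 held 3 GC boxes. None of the 5 motifs searched was found in the Itgb7 and Itga8 windows, which says only that these letters were not in these windows. RefSeq windows were matched for 28 of the 37 genes, with 35 starts. Of the 28 genes, 23 had 1 start, so some windows belong to the same gene. GGGCGG was in 18 of these 35 windows (51.4%) and in 32.7% of all 32851 windows of the same length. GGAATG was in 2 windows (5.71%) against 12.6%, and the AP-1 motif TGANTCA in 2 (5.71%) against 6.75%. The E-box CACGTG was in 1 (2.86%) against 6.02%, and the CArG box in 2 (5.71%) against 1.47%. No overlap between different motifs occurred in the 4 windows shown. These shares are descriptions, and a match is not evidence that a factor was bound.

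The comparison of LAMP2A with VT asked how overexpression changed these genes. Most receptor genes rose. Of the 33 tested, 24 rose and 5 fell at an adjusted p under 0.05, where 43.0% of all genes tested rose and 42.1% fell. At 2-fold or more, 16 rose and 4 fell, against 19.8% and 9.61% of all genes. Both counts of rises include Cd44, Itga11 and Itgb8, which passed the low-count filter only through their LAMP2A libraries. With only LAMP2A+DM-αKG and VT fitted, 30 of the receptor genes were tested. The median log2 fold change was 0.83 over these 33 genes and 0.01 over all genes. In either direction 29 of the 33 were called, where 85.1% of all genes were. The 5 that fell were Itgae, Itgal, Itga9, Itgb7 and Ddr2, and the 4 that did not pass were Itga10, Itga7, Itgb3 and Itgb4. With the fit limited to genes that averaged 5 CPM or more, 20 of the receptor genes were tested, 16 rose and 2 fell, and their median log2 fold change was 0.78. Of all 10706 genes in that fit, 4654 rose and 4734 fell.

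**Figure D1:**
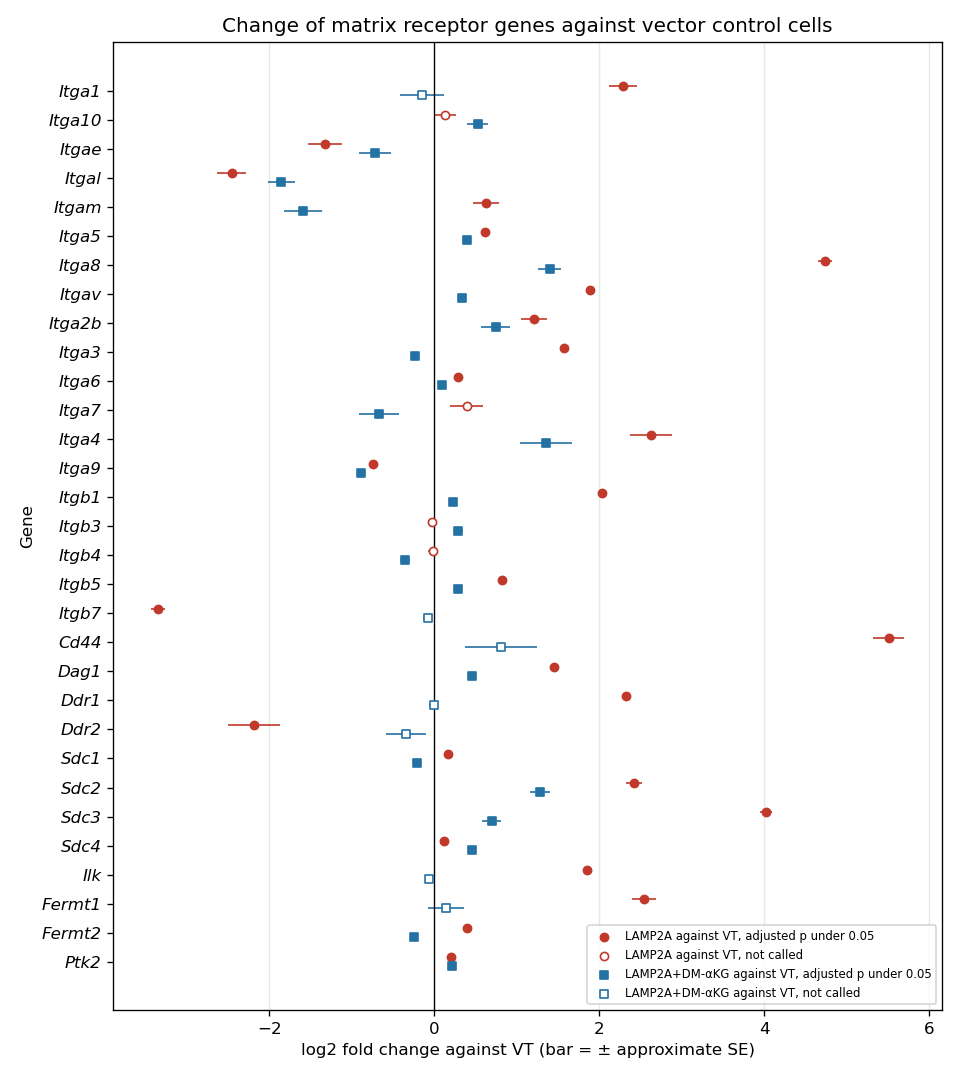
Log2 fold change against VT for 31 tested genes (rows), in LAMP2A cells (red circles) and LAMP2A+DM-αKG cells (blue squares), with the approximate standard error as a bar; open symbols mark genes that did not pass, and both series share the VT libraries. Itgb8 and Itga11, each with 3 or fewer counts in at least 1 group, were tested but are not drawn. Of the genes drawn, Cd44 stands furthest right in LAMP2A at 5.51 and Itgb7 furthest left at -3.35, while with DM-αKG they lie at 0.81 and -0.08.

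Beta subunits split. Itgb1 (chromosome 8, 128685654–128733200), the partner of most alpha subunits, stood at 189.5, 193 and 202 CPM in the VT libraries, 801, 801 and 795 in LAMP2A, and 231, 231 and 221.5 with DM-αKG. The LAMP2A libraries lay far above both other groups, no groups overlapped, and the rise over VT was 4.10-fold (log2 fold change 2.04, SE 0.031, adjusted p = 5.18e-35). With DM-αKG Itgb1 was 3.51-fold lower than in LAMP2A (log2 fold change -1.81, SE 0.031), and it remained 1.17-fold above VT (adjusted p = 1.7e-07). Itgb7 (chromosome 15, 102215995–102231944), which pairs with the alpha-4 and alpha-E subunits in lymphocytes, went the other way, at 29.0, 29.0 and 25.8 CPM in VT, 2.46, 2.55 and 3.25 in LAMP2A, and 26.8, 25.9 and 26.5 with DM-αKG. It fell 10.2-fold in LAMP2A (log2 fold change -3.35, SE 0.083, adjusted p = 1.28e-28) and rose 9.67-fold with DM-αKG. The LAMP2A+DM-αKG and VT ranges of Itgb7 overlapped (adjusted p = 0.21), though without VT replicate 3 the difference passed (log2 fold change -0.14, adjusted p = 0.0343).

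Itgb5 (chromosome 16, 33829665–33949338), a partner of the alpha-v subunit in the vitronectin receptor, stood at 34.0, 33.0 and 34.4 CPM in VT, 59.8, 60.4 and 59.4 in LAMP2A, and 42.0, 42.2 and 40.0 with DM-αKG. Its 3 groups did not overlap. Itgb5 rose 1.77-fold in LAMP2A and fell 1.45-fold with DM-αKG, staying 1.22-fold above VT (adjusted p = 5.66e-07). Itgb3, the other classic alpha-v partner, was at 18.8 to 21.8 CPM in VT and 19.6 to 20.1 in LAMP2A (adjusted p = 0.722), and it rose 1.24-fold with DM-αKG to 23.2 to 26.5 CPM. Itgb4, the hemidesmosome subunit that pairs with alpha-6, was at 20.1 to 22.4 CPM in VT and 20.2 to 21.8 in LAMP2A (adjusted p = 0.736), and fell 1.26-fold with DM-αKG. Itgb8, an alpha-v partner that activates latent TGF-beta, had no count in the VT libraries, 46, 42 and 28 counts in LAMP2A, and 1 count over the LAMP2A+DM-αKG libraries. Against a floor of 3 counts over the VT group it was at least 32.9-fold higher in LAMP2A, and its ratio of LAMP2A to LAMP2A+DM-αKG was 100.8 with a 95% counting interval of 17.7 to 4014. Without LAMP2A+DM-αKG replicate 3, which held that 1 count, the fitted log2 fold change of Itgb8 moved from -6.22 to -8.12. Itgb6, the epithelial alpha-v partner, had 14 counts in LAMP2A and none in the other groups, and Itgb2, the leukocyte beta subunit, had 10, 37 and 12 counts in VT, LAMP2A and LAMP2A+DM-αKG. Neither was tested.

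Laminin-binding alpha subunits differed in size of response. Itga3 (chromosome 11, 95044474–95076801) stood at 109, 103 and 103 CPM in VT, 309.8, 315 and 314 in LAMP2A, and 90.8, 88.1 and 89.5 with DM-αKG. It rose 2.98-fold in LAMP2A (log2 fold change 1.58, SE 0.031, adjusted p = 1.2e-31), and with DM-αKG it fell 3.50-fold to a level 1.17-fold below VT (adjusted p = 3.91e-07), with no overlap between groups. Itga6 (chromosome 2, 71745616–71858416), the laminin receptor subunit long used as a surface marker of stem cells, had the highest CPM of the alpha subunits in each group, at 329, 322 and 336 in VT, 398, 401 and 400.1 in LAMP2A, and 349, 347 and 355 with DM-αKG. CPM is not scaled by length, and per kb of merged exons Itga6 led the alpha subunits in VT only. Its changes were small: 1.21-fold up in LAMP2A (log2 fold change 0.28, SE 0.028) and 1.14-fold down with DM-αKG. The 1.06-fold difference of Itga6 from VT with DM-αKG passed (adjusted p = 0.00723), and was lost without LAMP2A+DM-αKG replicate 3 (adjusted p = 0.0503). Itga7, the muscle laminin receptor subunit, was at 1.11 to 2.03 CPM in VT and 1.57 to 2.33 in LAMP2A and did not pass (adjusted p = 0.0677), though it did without VT replicate 2 (adjusted p = 0.00192), without LAMP2A replicate 3 (adjusted p = 0.0321) and with a replicate block (adjusted p = 0.0475). Against LAMP2A it fell 2.09-fold with DM-αKG. Against VT its fall (log2 fold change -0.68, adjusted p = 0.0179) was lost without VT replicate 2 (adjusted p = 0.298) or without LAMP2A+DM-αKG replicate 3 (adjusted p = 0.0712).

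All 4 alpha subunits that bind the RGD sequence of matrix proteins rose in LAMP2A and fell with DM-αKG. Itga5 (chromosome 15, 103344286–103366763), the fibronectin receptor subunit, was at 169, 159.9 and 161 CPM in VT, 249, 252 and 248 in LAMP2A, and 215, 211 and 217 with DM-αKG. The groups did not overlap, and Itga5 remained 1.31-fold above VT with DM-αKG (adjusted p = 2.48e-13) after a 1.53-fold rise in LAMP2A. Itgav (chromosome 2, 83724397–83806916), the alpha-v subunit of vitronectin receptors, was at 42.3, 42.1 and 45.6 CPM in VT, 162, 161 and 159.7 in LAMP2A, and 53.5, 55.6 and 55.1 with DM-αKG. LAMP2A libraries lay 3.71-fold above VT (log2 fold change 1.89, SE 0.036), and DM-αKG left Itgav 1.26-fold above VT. Itga8 (chromosome 2, 12106632–12301922), whose integrin binds nephronectin, showed the steepest rise of the 4. It stood at 1.81, 1.29 and 1.56 CPM in VT, 41.5, 41.3 and 41.3 in LAMP2A, and 3.66, 3.89 and 4.59 with DM-αKG. The rise was 26.7-fold (log2 fold change 4.74, SE 0.085, adjusted p = 7.61e-33). With DM-αKG Itga8 fell 10.1-fold, and all 3 of those libraries stayed above all 3 of VT, by 2.63-fold on average (adjusted p = 2.95e-10). Itga2b, the platelet fibrinogen receptor subunit, rose 2.31-fold from 1.32 to 1.40 CPM in VT to 2.67 to 3.47 in LAMP2A. The 8 megakaryocyte and platelet markers checked, Itga2b among them, summed to 1.36 to 1.52 CPM in VT, 2.89 to 3.77 in LAMP2A and 1.89 to 2.62 with DM-αKG. Itga2b itself, at 1.85 to 2.50 CPM with DM-αKG, made up most of the sum in each group. The sums therefore mostly repeat Itga2b and say little of the other markers. Pf4 and Gp9 had no count in any group.

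**Figure D2:**
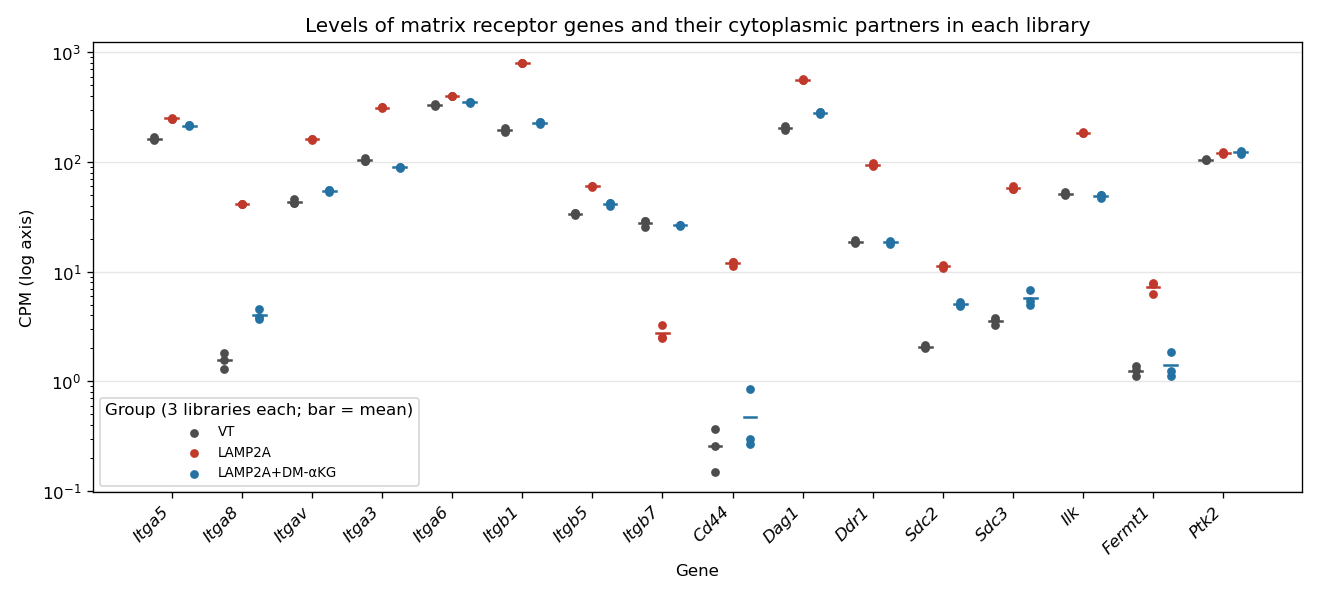
CPM of 16 genes in each of the 9 libraries on a log axis, with VT in grey, LAMP2A in red and LAMP2A+DM-αKG in blue; points are libraries and bars the mean of 3. LAMP2A points lie above both other groups for all genes shown but Itgb7, where they lie below, and Ptk2, where LAMP2A and LAMP2A+DM-αKG overlap.

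Collagen-binding alpha subunits were scarce. Itga1, a receptor for collagen IV, was at 0.702 to 0.818 CPM in VT, 3.31 to 4.19 in LAMP2A and 0.589 to 0.847 with DM-αKG, a 4.88-fold rise (adjusted p = 2.47e-14) and a 5.42-fold fall. Itga11, a fibrillar collagen receptor of mesenchymal cells, had 1, 55 and 6 counts in VT, LAMP2A and LAMP2A+DM-αKG. Its ratio of LAMP2A to VT was 46.8 with a 95% counting interval of 8.06 to 1884. The 1 VT count lay in replicate 1, without which the fitted log2 fold change moved from 5.13 to 7.09 and the difference of LAMP2A+DM-αKG from VT passed (adjusted p = 0.0348, against 0.0905 with all libraries). Itga10, the cartilage collagen receptor subunit, was at 3.16 to 3.62 CPM in VT and 3.25 to 4.13 in LAMP2A (adjusted p = 0.35), and rose to 4.04 to 5.54 with DM-αKG (log2 fold change 0.53 against VT, adjusted p = 5.48e-04). Itga10 shares 33.5% of its merged exons with another annotated protein-coding gene on the same strand that is not among the genes counted, so its counts are less certain. Itga2 had 1, 11 and 7 counts. All 7 of the LAMP2A+DM-αKG counts of Itga2 came from replicate 1.

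Itga4 and Itga9 form a pair of related alpha subunits that bind fibronectin, VCAM1 or tenascin, and they moved in opposite directions in LAMP2A. Itga4 was at 0.259 to 0.483 CPM in VT, 1.75 to 2.52 in LAMP2A and 0.715 to 0.998 with DM-αKG. It rose 6.17-fold in LAMP2A (adjusted p = 9.66e-12), fell 2.41-fold with DM-αKG and remained 2.56-fold above VT (adjusted p = 4.3e-04). Itga9 was at 51.0 to 54.2 CPM in VT, 31.0 to 31.9 in LAMP2A and 27.3 to 29.3 with DM-αKG. It fell 1.68-fold in LAMP2A (adjusted p = 9.74e-18). With DM-αKG it was a further 1.11-fold lower (adjusted p = 0.00399) and lay 1.86-fold below VT (adjusted p = 2.01e-18).

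Alpha subunits of leukocyte integrins were counted at low levels. Itgal, which forms LFA-1, was at 3.29 to 4.39 CPM in VT, 0.578 to 0.745 in LAMP2A and 0.962 to 1.09 with DM-αKG. It fell 5.50-fold in LAMP2A (adjusted p = 6.15e-15) and was still 3.62-fold below VT with DM-αKG (adjusted p = 1.41e-11). Itgae, whose integrin binds E-cadherin, fell 2.51-fold from 1.63 to 2.19 CPM in VT to 0.635 to 0.912 in LAMP2A, and stood at 0.898 to 1.39 with DM-αKG, 1.65-fold below VT. The rises of Itgal and Itgae with DM-αKG over LAMP2A (log2 fold changes 0.60 and 0.61, adjusted p = 0.0218 and 0.0171) each depended on single libraries. That of Itgal was lost without LAMP2A replicate 1 (adjusted p = 0.0904) or LAMP2A+DM-αKG replicate 1 (adjusted p = 0.055). That of Itgae was lost without LAMP2A replicate 3 (adjusted p = 0.0661), LAMP2A+DM-αKG replicate 1 (adjusted p = 0.081) or replicate 2 (adjusted p = 0.0678). Itgam, the macrophage and neutrophil subunit, rose 1.54-fold in LAMP2A and fell to 3.02-fold below VT with DM-αKG (0.466 to 0.654 CPM against 1.40 to 1.93; adjusted p = 3.84e-07). Itgam shares 68.7% of its merged exons with another annotated protein-coding gene on the same strand that is not among the genes counted, so its counts are less certain. The 12 leukocyte markers checked summed to 278 to 300.5 CPM in VT, 85.4 to 88.1 in LAMP2A and 243 to 256 with DM-αKG, mostly from Laptm5 (246.5 CPM in VT). Adgre1 had no count in any group, Ptprc none in LAMP2A, Csf1r none in VT, and Tyrobp none in VT and LAMP2A+DM-αKG.

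Syndecans rose in LAMP2A, by unequal amounts. Sdc3 (chromosome 4, 130792537–130826319), a syndecan best known from neural tissue, was at 3.62, 3.29 and 3.79 CPM in VT, 56.6, 57.2 and 59.8 in LAMP2A, and 4.96, 5.35 and 6.82 with DM-αKG. It rose 16.2-fold in LAMP2A (log2 fold change 4.02, SE 0.074, adjusted p = 1.34e-32) and stayed 1.62-fold above VT with DM-αKG. Sdc2 (chromosome 15, 32920723–33034935), a syndecan of mesenchymal cells, was at 2.02, 2.14 and 2.04 CPM in VT, 11.2, 10.8 and 11.4 in LAMP2A, and 4.96, 5.27 and 4.86 with DM-αKG. It rose 5.37-fold and fell 2.21-fold with DM-αKG, so that its 3 groups formed 3 separate levels and the LAMP2A+DM-αKG level lay 2.42-fold above VT (adjusted p = 4.28e-11). Sdc1, the epithelial syndecan, rose 1.12-fold in LAMP2A, from 45.2 to 47.4 CPM to 51.9 to 52.6 CPM, and with DM-αKG lay 1.16-fold below VT. Sdc4, the syndecan of focal adhesions, was highest with DM-αKG, at 61.8 to 67.8 CPM against 43.9 to 50.2 in VT (log2 fold change 0.45, adjusted p = 1.5e-10). Its rise in LAMP2A (log2 fold change 0.12, adjusted p = 0.0154) came with overlapping libraries. It was lost without VT replicate 1 (adjusted p = 0.0595), VT replicate 3 (adjusted p = 0.141) or LAMP2A replicate 2 (adjusted p = 0.0927).

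Of the other receptors, Cd44 (chromosome 2, 102811141–102901665), the hyaluronan receptor, had the highest fold rise among receptor genes with more than 3 counts in each group. It was at 0.370, 0.259 and 0.149 CPM in VT, 12.2, 11.3 and 12.2 in LAMP2A, and 0.841, 0.269 and 0.299 with DM-αKG. The rise in LAMP2A was 45.6-fold (log2 fold change 5.51, SE 0.187, adjusted p = 1.91e-24). Cd44 passed the low-count filter only through the LAMP2A libraries, so it could be tested only because it was high there. LAMP2A+DM-αKG replicate 1 lay above the other 2 libraries of its group, which lay within the VT range. In that library several mesenchymal genes stood apart as well: Col3a1 had 42 counts against 2 and 1 in replicates 2 and 3, Col1a2 16 against 1 and 0, Col6a1 13 against 1 and 2, S100a4 8 against 0 and 0, and Dcn 5 against 1 and 0. Pdgfra did not, with 165 counts against 181 and 233. The part of this in the Cd44 value was not tested. Without that library the log2 fold change of Cd44 with DM-αKG moved from -4.70 to -5.35. Cd44 did not pass between LAMP2A+DM-αKG and VT (adjusted p = 0.108), but did without LAMP2A+DM-αKG replicate 2 (adjusted p = 0.0442) or replicate 3 (adjusted p = 0.0494). Dag1 (chromosome 9, 108204634–108263958), dystroglycan, was at 211, 198 and 205 CPM in VT, 559.6, 556 and 569 in LAMP2A, and 284, 274 and 286 with DM-αKG. Its groups did not overlap, with a 2.74-fold rise in LAMP2A and a level 1.37-fold above VT with DM-αKG (adjusted p = 8.8e-15).

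The collagen receptor kinases moved in opposite directions. Ddr1 (chromosome 17, 35681567–35704621), the epithelial member, was at 18.2, 18.5 and 19.3 CPM in VT, 93.0, 91.5 and 97.1 in LAMP2A, and 18.7, 18 and 19.0 with DM-αKG. It rose 5.02-fold in LAMP2A (adjusted p = 3.09e-32) and fell 5.05-fold with DM-αKG, and the LAMP2A+DM-αKG and VT libraries overlapped (log2 fold change -0.01, SE 0.056, adjusted p = 0.905). Ddr2, the mesenchymal member, was at 0.850 to 0.987 CPM in VT, 0.182 to 0.224 in LAMP2A and 0.632 to 0.841 with DM-αKG. It fell 4.55-fold in LAMP2A (adjusted p = 1.13e-07) and rose 3.59-fold with DM-αKG.

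Cytoplasmic partners of integrin tails all rose in LAMP2A. Ilk (chromosome 7, 105736592–105742925), the integrin-linked pseudokinase, was at 51.0, 53.3 and 49.9 CPM in VT, 184, 183 and 189 in LAMP2A, and 47.1, 49.8 and 50.2 with DM-αKG. LAMP2A stood 3.61-fold above VT (log2 fold change 1.85, SE 0.035, adjusted p = 4.75e-32), and the other 2 groups overlapped (adjusted p = 0.16). Taf10, on the opposite strand, shares 76.7% of the merged exons of Ilk, and stood at 70.1, 68.1 and 66.2 CPM in VT, LAMP2A and LAMP2A+DM-αKG (log2 fold change -0.04 in LAMP2A, adjusted p = 0.312). Rrp8, also on the opposite strand, shares 12.9% of them and had a log2 fold change of -0.497 in LAMP2A (adjusted p = 1.5e-14). Reads of Ilk may be mixed with those of Taf10 and Rrp8 or be left uncounted, since no source used here states the strand setting of the counting. Fermt1 (chromosome 2, 132904389–132945906), the epithelial kindlin, was at 1.11, 1.37 and 1.26 CPM in VT, 7.63, 7.92 and 6.23 in LAMP2A, and 1.85, 1.12 and 1.23 with DM-αKG, a 5.83-fold rise and a 5.29-fold fall. Fermt2, the widely expressed kindlin, rose 1.31-fold in LAMP2A, from 242 to 248 CPM to 319.8 to 324 CPM, and fell to 204 to 209 CPM with DM-αKG, 1.19-fold below VT (adjusted p = 2.88e-09). Ptk2 (chromosome 15, 73205102–73423280), focal adhesion kinase, was at 108, 103 and 105 CPM in VT, 118, 124 and 119.7 in LAMP2A, and 126, 119 and 123 with DM-αKG. It rose 1.15-fold in LAMP2A and was the single tested gene of the 33 that did not pass between LAMP2A+DM-αKG and LAMP2A (log2 fold change 0.02, SE 0.033, adjusted p = 0.518).

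In the comparison of LAMP2A+DM-αKG with LAMP2A, which asked what DM-αKG changed in these cells, 25 of the 33 genes fell and 7 rose, where 42.1% of all genes tested fell and 41.1% rose (83.2% in either direction). At 2-fold or more 16 fell and 2 rose (Itgb7 and Ddr2), against 17.6% and 8.06% of all genes, and the median log2 fold change was -0.997 over the 33 genes and 0.00 over all genes. This comparison and the previous one share the LAMP2A libraries. The falls again include Cd44, Itga11 and Itgb8, which passed the low-count filter only through those libraries. Against VT, 15 receptor genes were higher with DM-αKG and 9 lower, where 29.3% and 29.4% of all genes were (58.7% in either direction), so the share called in the lower direction was near that of all genes. At 2-fold or more, Itga8, Itga4 and Sdc2 were higher and Itgal and Itgam lower than VT, against 3.93% and 2.63% of all genes. The median log2 fold change was 0.22 over these genes and 0.00 over all genes.

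The makeup of integrin subunit transcripts was compared per length, as CPM per kb of merged exons. Summed alpha subunit levels were 101.5 ± 2.06 in VT, 177 ± 0.969 in LAMP2A and 109 ± 1.16 with DM-αKG (SD, n = 3), and summed beta subunit levels 73.8 ± 0.815, 220.3 ± 0.927 and 83.6 ± 1.60. Itgb1 made up 64.7% ± 1.52 of the beta sum in VT, 88.9% ± 0.0779 in LAMP2A and 66.8% ± 0.423 with DM-αKG. The share of Itgb7 was 13.7% ± 1.05, 0.451% ± 0.0727 and 11.4% ± 0.302, and that of Itgb5 12.9% ± 0.190, 7.65% ± 0.0388 and 13.9% ± 0.161. By merged exons Itgb7 and Itgb5 did not differ beyond their spread in VT, whereas in LAMP2A the share of Itgb7 was far below that of Itgb5. With coding length the VT shares did differ, at 8.99% to 10.3% for Itgb7 and 11.5% to 11.9% for Itgb5. Among alpha subunits, Itga6 held 35.9% ± 0.731 in VT, 25.0% ± 0.0480 in LAMP2A and 35.5% ± 0.155 with DM-αKG, and Itga3 18.1% ± 0.365, 30.9% ± 0.161 and 14.3% ± 0.181. Itga5 held 32.6% ± 0.451, 28.6% ± 0.113 and 39.7% ± 0.184. The leading alpha subunit by this measure was therefore Itga6 in VT, Itga3 in LAMP2A and Itga5 with DM-αKG, and with coding length in place of merged exons it was Itga6 in each group.

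**Figure D3:**
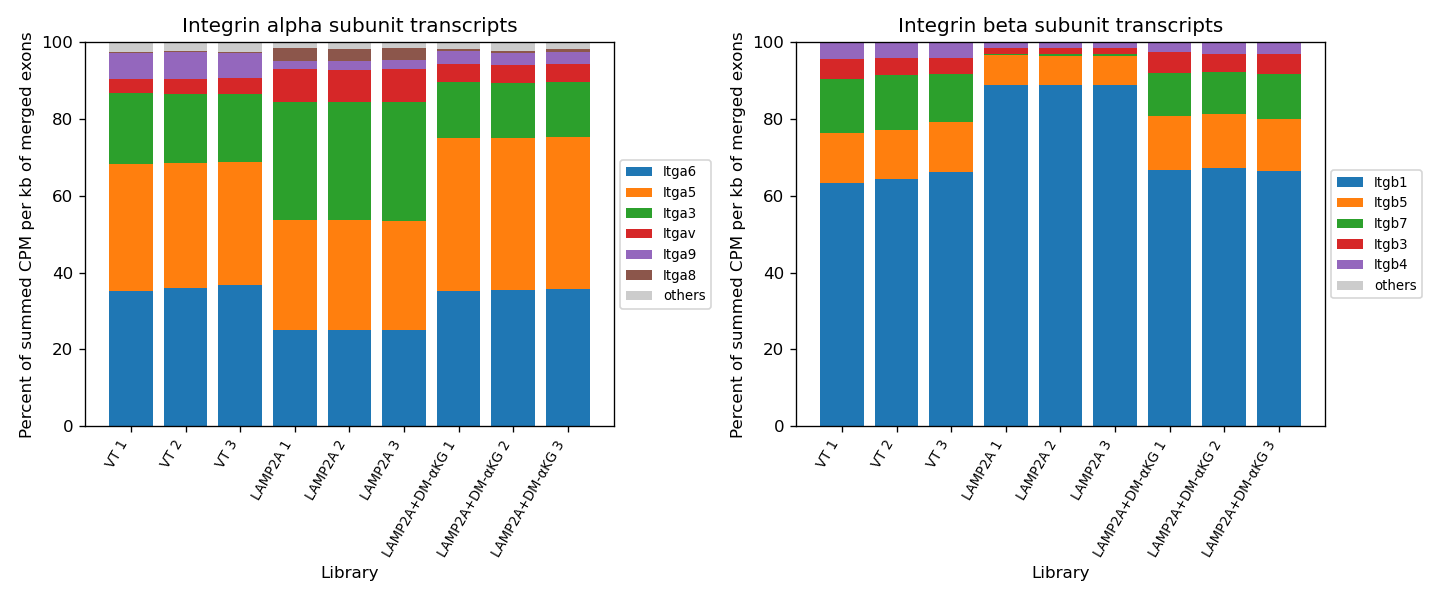
Share of each integrin alpha (left) and beta (right) subunit in the summed CPM per kb of merged exons, for each of the 9 libraries. Itgb1 takes 64.7%, 88.9% and 66.8% of the beta sum in VT, LAMP2A and LAMP2A+DM-αKG, and libraries of 1 group look alike.

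Over all 37 genes, the order by CPM per kb of merged exons in VT began with Itgb1 (47.7 ± 1.62) and Fermt2 (47.4 ± 0.666), which did not differ beyond their spread, then Itga6 (36.5 ± 0.810), Itga5 (33.1 ± 0.970) and Dag1 (32.2 ± 1.10), the last 2 within their spread. In LAMP2A Itgb1 stood apart at 195.9 ± 0.854, followed by Dag1 (88.3 ± 1.03), Ilk (67.6 ± 1.12) and Fermt2 (62.1 ± 0.397). The level of Ilk carries the limit from its shared exons given above. In LAMP2A+DM-αKG the order began with Itgb1 (55.8 ± 1.35), Dag1 (44.3 ± 1.00) and Itga5 (43.5 ± 0.628), and the last 2 lay within their spread. These orders hold for merged exons and change with coding length, which is 594 of 2547 bases in Sdc4 and 2466 of 4081 in Itgb1.

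Genes that work with these receptors moved in the same direction for the most part. Of 35 genes for matrix proteins, other integrin ligands and the hyaluronan synthases Has2 and Has3, 30 rose and 2 fell in LAMP2A (median log2 fold change 2.61), and 30 fell and 5 rose with DM-αKG. Of all genes tested, 43.0% rose and 42.1% fell in LAMP2A, and 42.1% fell and 41.1% rose with DM-αKG. Against VT, 17 of the 35 were higher with DM-αKG and 2 lower, where 29.3% and 29.4% of all genes were. Has2 was among those that rose in LAMP2A, at 0.241, 21.4 and 0.229 CPM in VT, LAMP2A and LAMP2A+DM-αKG, and Has3 did not pass in LAMP2A (adjusted p = 0.558). Cyr61, a ligand of alpha-v integrins, rose from 9.20 to 293 CPM, Lamb1, a laminin chain, from 86.1 to 737 CPM, and the basement membrane collagen genes Col4a1 and Col4a2 from 161 to 983.5 and from 67.3 to 586.5 CPM. The 2 that fell in LAMP2A were Spp1, osteopontin, from 393 to 86.3 CPM, and Icam1, the ligand of LFA-1, from 144.6 to 86.6 CPM. With DM-αKG Col4a1 and Col4a2 fell to 345 and 151 CPM, levels 2.14-fold and 2.24-fold above VT (adjusted p = 2.22e-25 and 5.16e-25). Cyr61 fell to 10.3 CPM, and its 1.12-fold difference from VT (adjusted p = 0.0417) was lost without VT replicate 1 or 2 or LAMP2A+DM-αKG replicate 1 or 3 (adjusted p = 0.0683 to 0.176).

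Of 30 adaptor genes of adhesion sites, 22 rose and 6 fell in LAMP2A (median log2 fold change 0.53), and 22 fell and 5 rose with DM-αKG. Of all genes tested, 43.0% rose and 42.1% fell in LAMP2A, and 42.1% fell and 41.1% rose with DM-αKG. Against VT, 12 of the 30 were higher with DM-αKG and 10 lower, where 29.3% and 29.4% of all genes were. The parvins, which bind integrin-linked kinase, split: Parva rose 15.5-fold, from 12.7 to 197 CPM, while Parvb fell 5.97-fold, from 261 to 43.7 CPM (adjusted p = 8.12e-39 and 8.63e-37). With DM-αKG Parva was at 26.3 and Parvb at 196.4 CPM. Zyx, zyxin, rose 15.6-fold and Tgfb1i1, the paxillin relative HIC-5, 95.9-fold. The excess of Tgfb1i1 over VT with DM-αKG (log2 fold change 0.69, adjusted p = 0.00809) was lost without VT replicate 3 (adjusted p = 0.0909) or LAMP2A+DM-αKG replicate 2 (adjusted p = 0.11). The adaptors Lims2, Tns1, Tns3, Ptk2b and Itgb1bp1 also fell in LAMP2A, by 1.25-fold (Tns3) to 1.86-fold (Ptk2b). Tns3, a tensin, fell a further 1.61-fold with DM-αKG, to 301 CPM against 606 in VT.

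Of 23 tested genes among other matrix receptors and receptor partners, 19 rose and 4 fell in LAMP2A (median log2 fold change 1.37), and 18 fell and 4 rose with DM-αKG. Against VT, 11 of the 23 were higher with DM-αKG and 5 lower, where 29.3% and 29.4% of all genes were. Gpc3 and Gpc6, glypicans, rose 26.6-fold and 14.4-fold, Emb, embigin, 4.85-fold and Sgce, a sarcoglycan of the dystroglycan complex, 14.1-fold. The 4 that fell in LAMP2A were Dmd, dystrophin, at 2.78-fold, Hmmr, a hyaluronan-binding mitotic protein, at 1.63-fold, Mcam at 1.24-fold and Slc3a2, which associates with beta-1 integrins, at 1.16-fold. These 3 lists were written with earlier results of these data known, and their counts are descriptions read beside the shares of all genes given above.

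**Figure D4:**
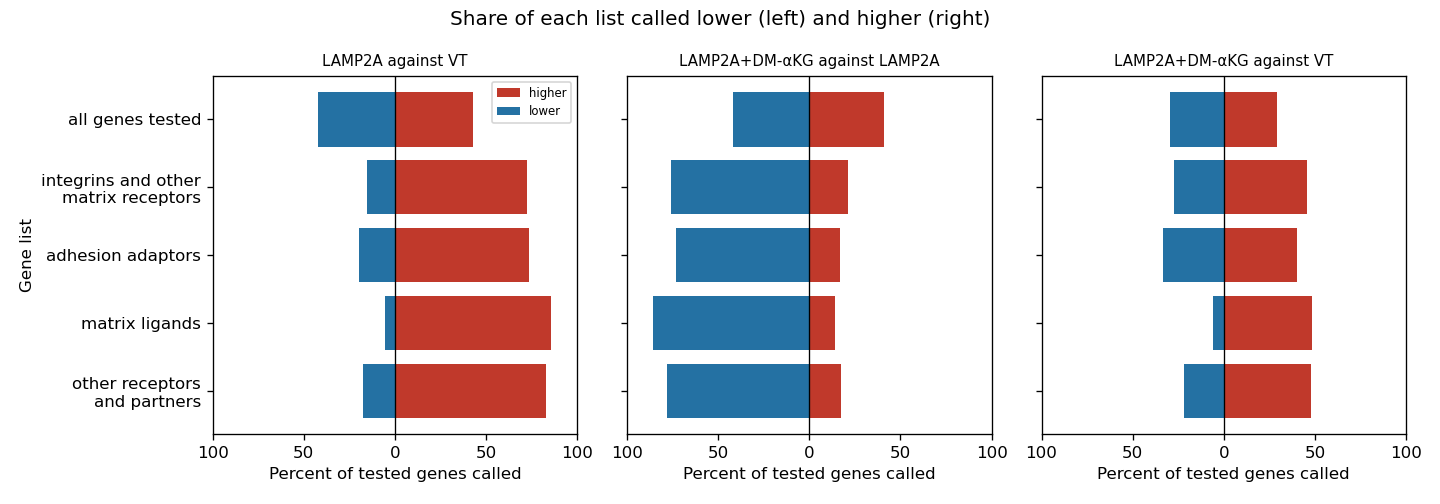
Percent of the tested genes of each list called lower (blue, left of 0) and higher (red, right of 0) at an adjusted p under 0.05, in the 3 comparisons, with all 14513 tested genes in the top row. Of the 33 tested integrins and other matrix receptors 24 are higher in LAMP2A than in VT, and 25 are lower with DM-αKG than in LAMP2A.

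The authors' deposited table for LAMP2A against VT lists 36 of the 37 genes and calls 26 higher and 5 lower at an adjusted p under 0.05. All 29 genes called in both that table and the fit made here had the same sign, with log2 fold changes at most 0.66 apart. In the authors' deposited table for LAMP2A+DM-αKG against LAMP2A, 5 were higher and 27 lower, and the 30 called in both again shared their sign.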

How the data were processed

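The authors deposited 1 table of counts per gene for 9 libraries, made from stranded mRNA libraries with STAR 2.7.1, HTSeq 0.11.2 and build mm10, per the submitters' processing notes. The strand setting of the counting is not given in the sources used here. The authors also deposited 2 tables with log2 fold changes and adjusted p-values, for which the submitters' processing notes name DESeq2; they were used only for the sentences that name them. Columns were matched to samples by their titles.

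Genes were fitted with edgeR 4.0.16 (R 4.3.3) on all 9 libraries, with its default filter on low counts, TMM scaling and the robust quasi-likelihood test, with 6 residual degrees of freedom. P-values were adjusted by Benjamini and Hochberg over 14513 genes, and 0.05 was the threshold. The test was two-sided and was also run on simulated data with known changes. Far fewer genes changed in those data than were called here, so that run could not check TMM scaling where most genes move. Standard errors are the log2 fold change divided by the square root of the F statistic. CPM values are descriptions, as mean ± SD or per library. Counting intervals are exact 95% intervals, they and the floor of 3 counts over a group cover counting error only, and reads carry no molecular identifiers.

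Lengths, positions and exon overlaps came from GENCODE M21 (GRCm38, the assembly of mm10), and promoters from RefSeq. Merged exons of 12 of the 37 genes overlap another gene, 3 of them by at least 10% (Ilk, Itgam and Itga10). Some of the overlapped genes, those of Itgam and Itga10 among them, are not among the genes counted. Values of every library were given for the 12 called genes with the largest change in LAMP2A against VT and a group mean of at least 5 CPM, for those 2-fold or more from VT with DM-αKG that also reached such a mean, and for Itga5, Itga6, Itgav, Itgb1, Itgb5, Ilk and Ptk2. Of each list, up to 4 called genes with the smallest p and those called against the majority were named. The genes and lists were chosen with earlier results of these data known. Alternatives were DESeq2 1.42.0, library totals without TMM factors, other filters, only the 2 groups compared, a replicate block, coding length and each library left out.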

Additional observations from a re-analysis of the deposited data

How the results depend on the processing

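Counts of called genes stayed within 1.5 times the reported value under all alternatives run except a filter at a mean of 5 CPM. That filter left 20 of the 33 receptor genes to test, of which 18 were called in LAMP2A against VT and 19 in LAMP2A+DM-αKG against LAMP2A. Among all 10706 genes under that filter, 9388 and 9207 were called in these comparisons. No direction of a called gene reversed. Leaving out each library in turn gave 28 to 31, 31 to 33 and 23 to 25 called receptor genes in LAMP2A against VT, LAMP2A+DM-αKG against LAMP2A and LAMP2A+DM-αKG against VT. The same runs called 12107 to 12440, 11750 to 12372 and 7743 to 8371 of all genes tested. Coding length in place of merged exons moved the subunit shares. In VT, LAMP2A and LAMP2A+DM-αKG, Itgb1 then took 67.8%, 89.5% and 69.2%, Itgb7 9.88%, 0.314% and 8.16%, Itga3 14.2%, 24.7% and 11.3%, and Itga6 45.6%, 32.2% and 45.5%.

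No pairing of libraries by the replicate numbers of the labels was seen, which does not exclude one. Deviations of same-numbered libraries from their group means correlated at -0.0266 to 0.0117, and those of differently numbered libraries at -0.0198 to 0.034. With the replicate block, 30, 32 and 24 receptor genes and 12341, 12065 and 8464 of all genes were called in the same 3 comparisons. The block changed the calls of 2 named genes, Itga7 in LAMP2A against VT (adjusted p = 0.0475) and Cyr61 in LAMP2A+DM-αKG against VT (adjusted p = 0.0509). Cyr61 in that comparison was also lost with DESeq2 (adjusted p = 0.0704) and with only the 2 groups fitted (adjusted p = 0.0558). Depth limits statements on Itga2, Itga11, Itgb6, Itgb8 and Itgax, each with 3 or fewer counts in at least 1 group.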
